A study of Ambystoma mexicanum with 17 samples.

Results

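In cultured explants of axolotl oropharyngeal endoderm, 60 genes were high together in 2 libraries of stage 39, and many of the same genes were high again in 2 of the 5 libraries of stage 41. They were chosen by their measured values. Counts were scaled to CPM, which gives every library the same total, and L was set as log2(CPM + 10). Of the 19649 genes in the table, 2931 had a summed count of at least 100 and a count in at least 9 of the 17 libraries. For each of these the excess in a library was its L minus the median L of that gene over the 17 libraries, so an excess of 2 log2 units is 4-fold above the median on the CPM + 10 scale. The 60 members are the genes with the largest value of the smaller of the excesses in stage 39 replicates 2 and 4, and they are called below by their rank in that order.

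The study followed endoderm of the future mouth and throat of Ambystoma mexicanum embryos in culture by single-end RNA-seq of total RNA. All explants were cut out at stage 15, kept in a diluted L-15 medium with serum albumin and antibiotics, and harvested when sibling whole embryos reached the stage named. Stage 37/38 has 6 libraries, stage 39 has 6 and stage 41 has 5, with no other treatment or genotype in the labels. Whether the replicates came from separate embryos or from pools is not in the labels, so p-values rest on a spread that may be technical. Total counts ran from 67838 to 748726 per library with a median of 180452, and 1 count was worth 1.34 to 14.7 CPM.

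Oropharyngeal endoderm forms the lining of the mouth and pharynx. In axolotls it gives rise to taste buds, clusters of receptor cells that can form in explants of this tissue cultured without nerves. The genes are clusters of transcripts assembled de novo from reads with Trinity, and the files pair none of them with a gene name. The reference table for the axolotl matched 0 of the identifiers, so no function or cell type can be given to any member, and markers of the labelled tissue and of other cell types could not be examined. In extracted tissue RNA, more cells of a type and more RNA per cell cannot be told apart.

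The values that chose the members are given first, as a description. In stage 39 replicates 2 and 4 the smaller excess ran from 6.64 for the member ranked 1 down to 2.49 for the member ranked 60, with a median of 3.27. The limit falls in a smooth series: the genes ranked 56 to 60 had smaller excesses of 2.51 to 2.49, and the first 5 genes left out, ranked 61 to 65, had 2.48 to 2.44. The libraries were close to each other in most members, since 45 of the 60 lay within 2-fold between them in CPM and 34 were higher in replicate 4. The widest gaps were at ranks 46, with 4041 CPM in replicate 4 and 808 in replicate 2, and 19, with 6429.9 and 1389.9 CPM in the same order. In 52 of the 60 members both libraries lay above each of the 13 libraries other than stage 39 replicates 2 and 4 and stage 41 replicates 1 and 3.

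Outside the libraries of the rule, many members were high in stage 41 replicates 1 and 3. Of the 60, 23 had a count in fewer than 9 of the 15 libraries outside the rule. These passed the filter only through stage 39 replicates 2 and 4, and the counts below include them. The shares over all genes kept are not limited to genes of similar median. In stage 41 replicate 1, 40 of the 60 members stood at least 4-fold above their median, where 9.38% of the 2931 genes kept did. In stage 41 replicate 3, 35 of the 60 did, where 9.76% of all genes kept did. In the other 13 libraries 0 to 12 members were that high, with a median of 3. Stage 37/38 replicates 1 to 6 had 6, 3, 0, 3, 7 and 3 such members, where 5.12%, 8.15%, 4.09%, 11.7%, 14.1% and 7.68% of all genes kept were that high. Stage 39 replicates 1, 3, 5 and 6 had 1, 3, 12 and 3, where 5.49%, 10.6%, 9.08% and 15.2% of all genes kept were. Stage 41 replicates 2, 4 and 5 had 4, 3 and 1, where 4.47%, 7.61% and 12.6% were. The share of members was thus below the background in most of these libraries, and above it in stage 37/38 replicate 1, stage 39 replicate 5 and stage 41 replicate 2. In stage 39 replicates 2 and 4 all 60 were that high by the rule, where 7.27% and 5.6% of all genes kept were. The median excess of the members was 2.53 log2 units in stage 41 replicate 1 and 2.55 in replicate 3, against 0.98, -0.75 and -1.10 in replicates 2, 4 and 5 of that stage. Over all genes kept the median excess was 0.00 in replicates 1 and 3, and 0.36, -0.39 and -0.57 in replicates 2, 4 and 5. For the members it ran from -1.11 to 0.58 over the 6 libraries of stage 37/38 and from -1.21 to 1.05 over the 4 other libraries of stage 39. In the stage 37/38 libraries at those ends the median excess over all genes kept was -0.64 and 0.25. In those of stage 39 it was 0.00 and 0.21. So stage 41 held libraries high and low in these genes. No library of stage 37/38 was high in more than 7 of them, and none of the 4 other libraries of stage 39 in more than 12. The split within stage 39 was set by the rule, so nothing is read from it. Both the members and these counts depend on the filter and the median. With the median over the 15 libraries outside the rule, the rule chose 60 genes of which 53 are members. Of these 60, 47 and 45 were high in stage 41 replicates 1 and 3, where 9.04% and 9.18% of all genes kept were. With the median over the 14 libraries of at least 100000 counts, added after seeing the data, it chose 60 genes of which 51 are members. Of these 60, 25 and 26 were high in stage 41 replicates 1 and 3, where 7.71% and 8.39% of all genes kept were. With a count required in at least 13 libraries the rule chose 60 genes of which 15 are members, and 14 and 17 were high. Over the 2931 genes of the main filter 9.38% and 9.76% were. The share among the 1685 genes that pass the stricter filter was not taken.

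**Figure D1:**
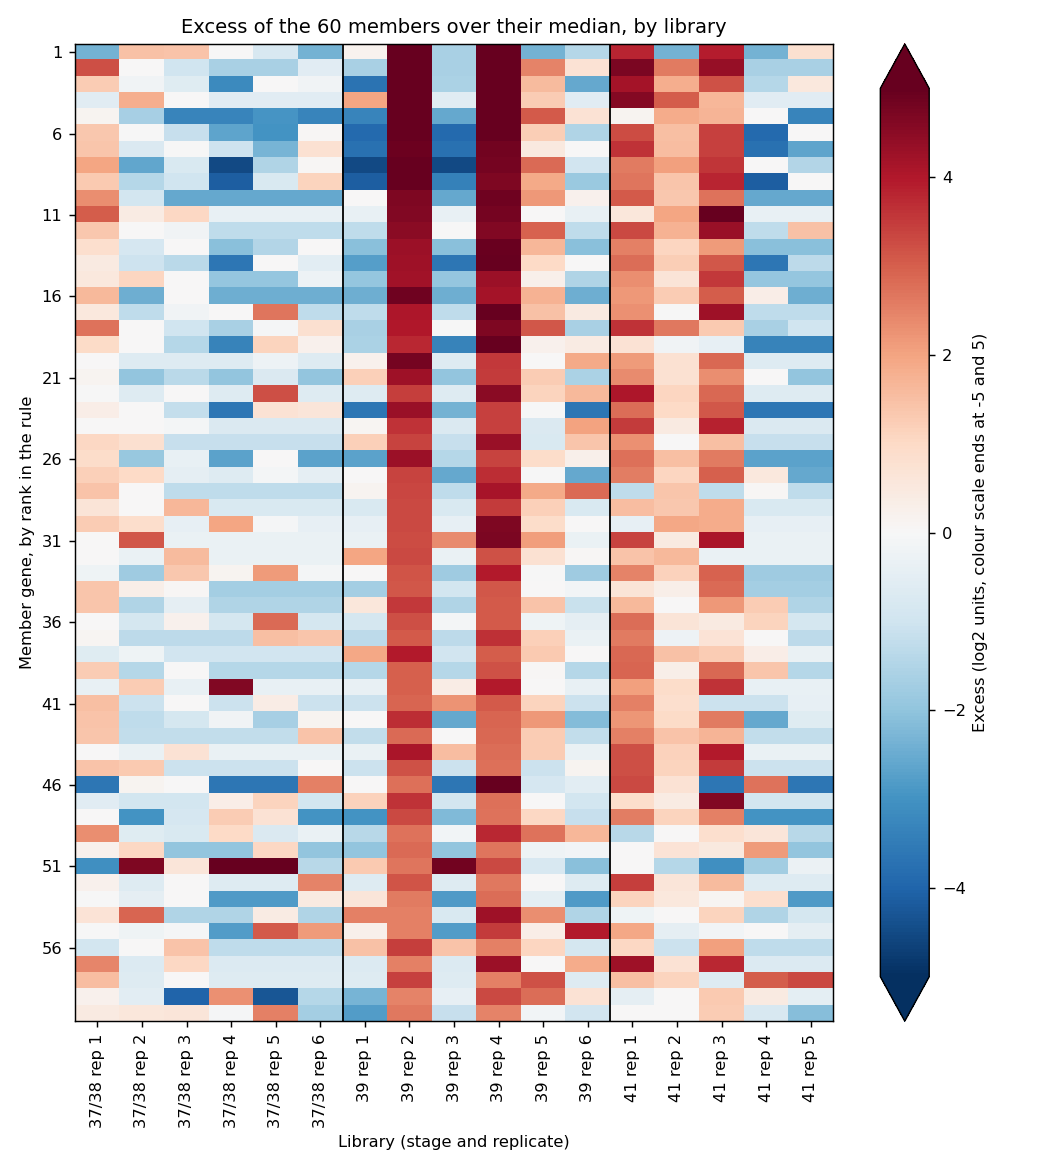
Excess (log2 units over the gene's median of 17 libraries) of the 60 members, 1 row each in order of rank, in the 17 libraries, 1 column each by stage and replicate; black lines part the stages. Stage 39 replicates 2 and 4, which chose the members, are red throughout, and stage 41 replicates 1 and 3 are red in 40 and 35 of the rows by an excess of at least 2.

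The share of counts was highest in the same 4 libraries. The share itself needs no median, but the members it sums were chosen by one. The high shares in stage 39 replicates 2 and 4 follow from the rule. Together the 60 members took 7.79% of the counts in stage 39 replicate 2 (Wilson 95% interval 7.71% to 7.86%) and 9.85% in replicate 4 (Wilson 95% interval 9.72% to 9.98%). They took 2.39% in stage 41 replicate 1 (Wilson 95% interval 2.32% to 2.45%) and 2.501% in replicate 3 (Wilson 95% interval 2.42% to 2.59%), intervals that overlap. The next library was stage 39 replicate 5 with 1.32%, and the lowest was stage 39 replicate 1 with 0.145%. At stage 41 the other replicates had 0.775%, 0.302% and 0.183%, and the 6 libraries of stage 37/38 had 0.194% to 0.699% with a median of 0.578%. The intervals hold counting error within 1 library alone, not the spread between libraries. No molecular identifiers mark separate molecules, so even the counting error may be understated. Of all counts that the members hold over the 17 libraries, the 3 members with the most counts hold 34.1%, and without those 3 the shares were 5.01% and 6.897% in stage 39 replicates 2 and 4, 1.596% and 1.75% in stage 41 replicates 1 and 3 and at most 0.634% elsewhere.

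**Figure D2:**
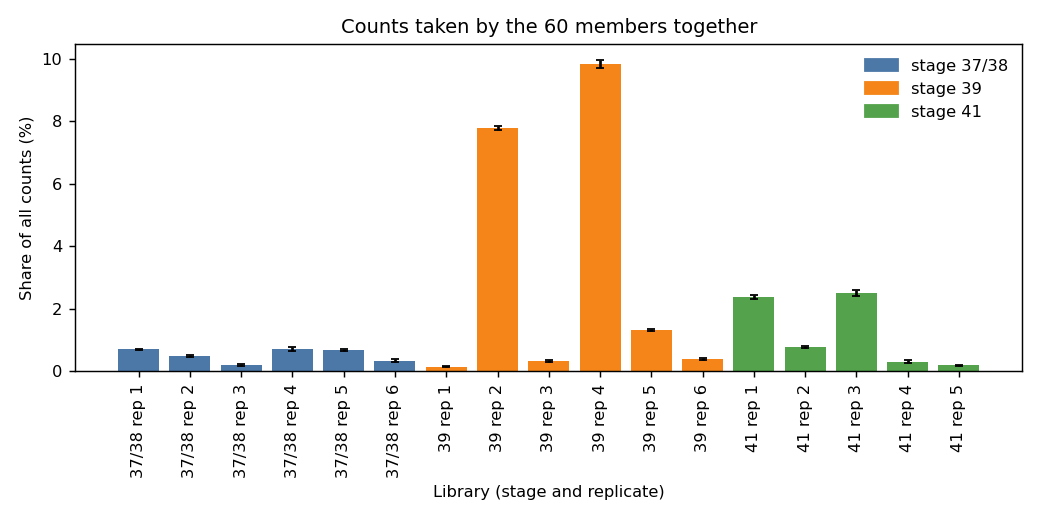
Share of all counts (%) that the 60 members take together in each of the 17 libraries, coloured by stage; bars start at 0 and the lines are Wilson 95% intervals for counting error. Stage 39 replicates 2 and 4, which chose the members, reach 7.79% and 9.85%. Stage 41 replicates 1 and 3 reach 2.39% and 2.501%, and no other library is above 1.32%.

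By the median over the 17 libraries, stage 41 replicates 1 and 3 shared many of their high members. Of the 60, 30 stood at least 4-fold above their median in both, 10 in replicate 1 only, 5 in replicate 3 only and 15 in neither. The 30 are 75% of the list of replicate 1 and 85.7% of the list of replicate 3. With 40 and 35 of the 60 high, lists of this length share many members in any case. How the overlap of 30 compares with that was not tested. This overlap depends on the median and the filter. With the median over the 14 libraries of at least 100000 counts, 13 of the 60 genes chosen were high in both, from lists of 25 and 26. With a count required in at least 13 libraries, 10 were, from lists of 14 and 17. With the median over the 15 libraries outside the rule, 38 were, from lists of 47 and 45. Among all genes kept, 74 were that high in both libraries, which is 2.52% of them, and 44 of these are not members. Of the 44, 2 reached that limit in both stage 39 replicates 2 and 4 as well, and 35 did in neither. The rule had already taken 60 of the 99 genes that reached it in both stage 39 libraries. Only 39 others were left that could be found here, so nothing is read from these counts. The libraries carry different title letters: stage 39 replicates 2 and 4 and stage 41 replicate 1 have letters of the run A to J, and stage 41 replicate 3 a letter of the run K to R. What the letters mean is not given in the labels. The number of members high in both stage 41 libraries fell with rank. It was 15 of the 20 members ranked 1 to 20, 10 of those ranked 21 to 40 and 5 of those ranked 41 to 60, and 3 of the 60 genes ranked next below the members. Rank and these counts use the same median of each gene and are not independent, so nothing is read from the fall. In stage 41 replicate 1 the members stood at a median of 30.6% of their mean CPM in stage 39 replicates 2 and 4, and in replicate 3 at 34.1%. The members were chosen for high values in those stage 39 libraries, which lowers such percentages. Apart from stage 41 replicates 1 and 3, no pair of the 15 libraries outside the rule shared more than 7 members high by 4-fold. Stage 39 replicate 5 and stage 41 replicate 1 shared 7. The other 13 libraries had at most 12 such members each, which limits what those pairs could share. By 8-fold in place of 4-fold, 17 and 22 members were high in stage 41 replicates 1 and 3, where 2.83% and 3.07% of all genes kept were.

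**Figure D3:**
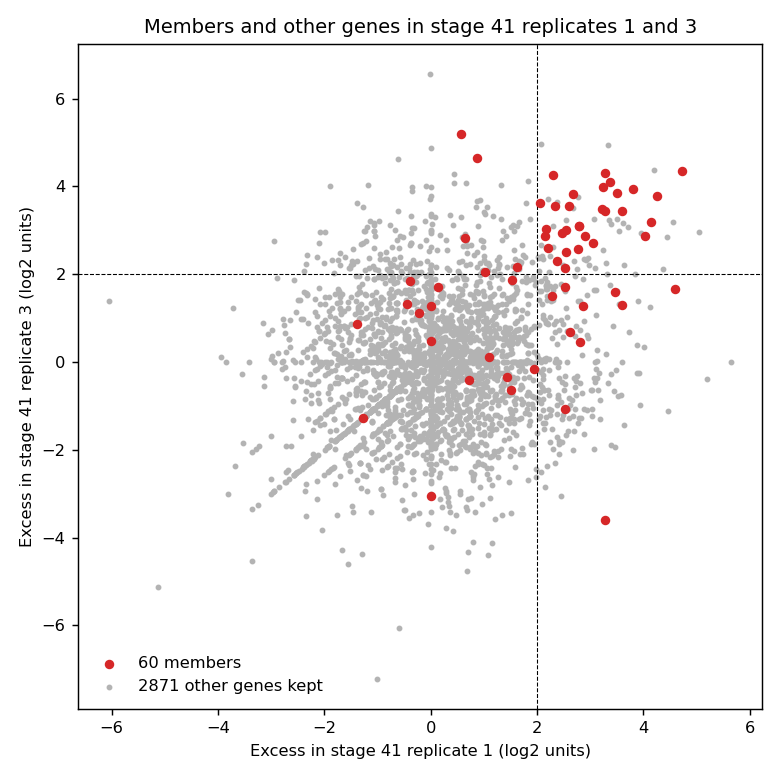
Excess (log2 units) of each gene in stage 41 replicate 1 on the horizontal axis and replicate 3 on the vertical axis, for the 60 members in red and the 2871 other genes kept in grey; dashed lines mark an excess of 2. Of the members 30 lie above both lines and 15 below both, while 44 of the other genes lie above both.

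The 4 classes of members are described by their levels, with no test. The classes use each gene's median over the 17 libraries, which its level in the other libraries helps set. Nothing is read from differences of level between the classes. The 30 high in both stage 41 libraries had a median of 689.6 CPM in their mean over stage 39 replicates 2 and 4 and of 7.59 CPM over the medians of the 13 other libraries. The 10 high in stage 41 replicate 1 only had 234 and 5.72 CPM, and the 5 high in replicate 3 only had 267 and 2.74 CPM. The 15 high in neither had 344 and 14.1 CPM, the highest level of the 4 classes in the other libraries. By median CPM over the 17 libraries, 19 of the 30 more abundant members and 11 of the 30 less abundant ones were high in both stage 41 libraries. The 10 members high only in replicate 1 had a median excess of 1.29 in replicate 3, and the 5 high only in replicate 3 had 0.87 in replicate 1.

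The order of abundance among the members did not set stage 41 replicates 1 and 3 apart from the other libraries. Over the 60 members, the log2(CPM + 10) values of stage 41 replicate 1 correlated with the mean CPM of stage 39 replicates 2 and 4, which the rule used, on the same scale at r = 0.727, and those of replicate 3 at r = 0.643. These are correlations across genes, which are not independent replicates, and they share what makes a transcript abundant anywhere. The other libraries had r from 0.122 in stage 39 replicate 1 to 0.784 in stage 41 replicate 2. Between stage 41 replicates 1 and 3 r was 0.607 over the members and 0.588 over the 2871 other genes kept.

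A further 3 libraries, 1 of each stage, held the members at a median level between those of the 4 high libraries and the rest. They were stage 37/38 replicate 1, stage 39 replicate 5 and stage 41 replicate 2, with a count in 55, 57 and 59 of the 60 members, where 95.6%, 91.2% and 97.4% of all genes kept had a count, so those counts of members are near the background. The members' median levels were 8.93%, 9.700% and 10.4% of those in stage 39 replicates 2 and 4, whose values chose the members. In the other 10 libraries outside the 4 high ones that median was at most 2.27%. The 3 libraries had 365562, 341080 and 748726 counts, and the part of depth in the members' level was not tested. With each library thinned to 60000 counts, 46, 47 and 52 members had a count in those 3 libraries, 54 in each of stage 41 replicates 1 and 3, all 60 in stage 39 replicates 2 and 4, and 11 to 35 in the other 10. The same 3 libraries showed the most genes of any kind at that depth, 5777, 5877 and 5713 against 2731 to 4806 in the other 14, and the part of that in the members' level was not tested. Stage 39 replicate 4, the library highest in the members, showed 3241 genes. In stage 39 replicate 5, 6 of the 12 members at least 4-fold above their median were also that high in both stage 41 replicates 1 and 3. It had more such members than the other 2 of these libraries, while stage 41 replicate 2 had more members with a count. The order of the median level depended on the measure. As a percentage of stage 39 replicates 2 and 4, stage 41 replicate 2 was highest. By median excess stage 39 replicate 5 was, with 1.05 against 0.98 in stage 41 replicate 2 and 0.58 in stage 37/38 replicate 1. Over all genes kept the median excess was 0.21, 0.36 and 0.25 in the same order.

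The members high at both stages are shown by TRINITY_DN31269_c0_g1 and TRINITY_DN344_c0_g1, the members with the largest value of the smaller excess in stage 41 replicates 1 and 3. TRINITY_DN31269_c0_g1, ranked 1, had 5169.6 CPM in stage 39 replicate 2 and 5792 in replicate 4, with 48.5, 6.83, 0 and 9.54 in replicates 1, 3, 5 and 6. At stage 41 it had 716, 0, 786, 0 and 80.1 CPM in replicates 1 to 5. At stage 37/38 it ran from 0 to 134 CPM, with a median of 30.8. Stage 41 replicates 1 and 3 thus lay above each library of stage 37/38, and replicates 2 and 4 had no count, so the stages overlap. TRINITY_DN344_c0_g1, ranked 2, had 1651 and 1589 CPM in stage 39 replicates 2 and 4, with 0, 0, 164 and 41.3 in replicates 1, 3, 5 and 6. At stage 41 it had 810.1, 178, 623, 0 and 0 CPM in replicates 1 to 5. At stage 37/38 it ran from 0 to 282 CPM, with a median of 8.21, and the highest of these, in replicate 1, rests on 103 counts. Replicates 1 and 3 of stage 41 were again above each stage 37/38 library, and replicates 4 and 5 had no count.

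The member ranked 3 had the largest summed count, most of it in the libraries that chose the members, and was 1 of 2 with a count in all 17 libraries. It had 15754 and 16292 CPM in stage 39 replicates 2 and 4, from 8263 and 3342 counts, and 16.2, 102, 1020.3 and 47.7 CPM in replicates 1, 3, 5 and 6. At stage 41 it had 6007, 1197, 3078, 118 and 486 CPM in replicates 1 to 5, and at stage 37/38 it ran from 27.9 to 807 CPM, with a median of 291. In this member stage 41 replicates 1, 2 and 3 lay above all libraries of stage 37/38. The members ranked 6, 7 and 14 had the same shape at lower levels, with 1420.1 and 1579.7, 1625 and 1439, and 844 and 1038 CPM in stage 41 replicates 1 and 3 and no count in stage 41 replicate 4 in any of them. The member ranked 59, the other with a count in every library, did not have this shape and had the higher median over the 17 libraries, 685 CPM against 330.1 for the member ranked 3. It had 3916 and 6805 CPM in stage 39 replicates 2 and 4, but also 4855 CPM in stage 39 replicate 5 and 3347 CPM in stage 37/38 replicate 4, and at stage 41 498, 685, 1713, 929 and 480.4 CPM in replicates 1 to 5. The member ranked 57 was as high at stage 41 as at stage 39, with 293 and 208 CPM in stage 41 replicates 1 and 3 and 80.1 and 297 CPM in stage 39 replicates 2 and 4. The member ranked 5 had 3401 and 5255 CPM in stage 39 replicates 2 and 4 and 97.6, 342, 311, 88.4 and 0 CPM in stage 41 replicates 1 to 5, where replicate 2 was the highest. These members were picked after their values were seen.

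Other members were high at stage 39 and not at stage 41. The members with the lowest value of the larger excess in stage 41 replicates 1 and 3 were TRINITY_DN26930_c0_g1 and TRINITY_DN85_c0_g1. TRINITY_DN26930_c0_g1, ranked 28, had 236 and 405 CPM in stage 39 replicates 2 and 4 and 16.2, 0, 79.2 and 162 in replicates 1, 3, 5 and 6. At stage 41 it had 0, 53.4, 0, 14.7 and 0 CPM in replicates 1 to 5, and at stage 37/38 it ran from 0 to 54.7 CPM, with a median of 0. Stages 37/38 and 41 overlap fully in it. TRINITY_DN85_c0_g1, ranked 51, had 522 and 809 CPM in stage 39 replicates 2 and 4, and a higher level, 2350.2 CPM, in stage 39 replicate 3, with 194, 38.1 and 9.54 in replicates 1, 5 and 6. At stage 41 it had 73.2, 21.4, 0, 14.7 and 57.2 CPM in replicates 1 to 5, and at stage 37/38 it ran from 0 to 3729 CPM, with a median of 1117, with its highest values in replicates 2, 4 and 5. This member passed the rule while its highest libraries were others, and its libraries fall into a high set and a low set within stage 37/38 itself.

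**Figure D4:**
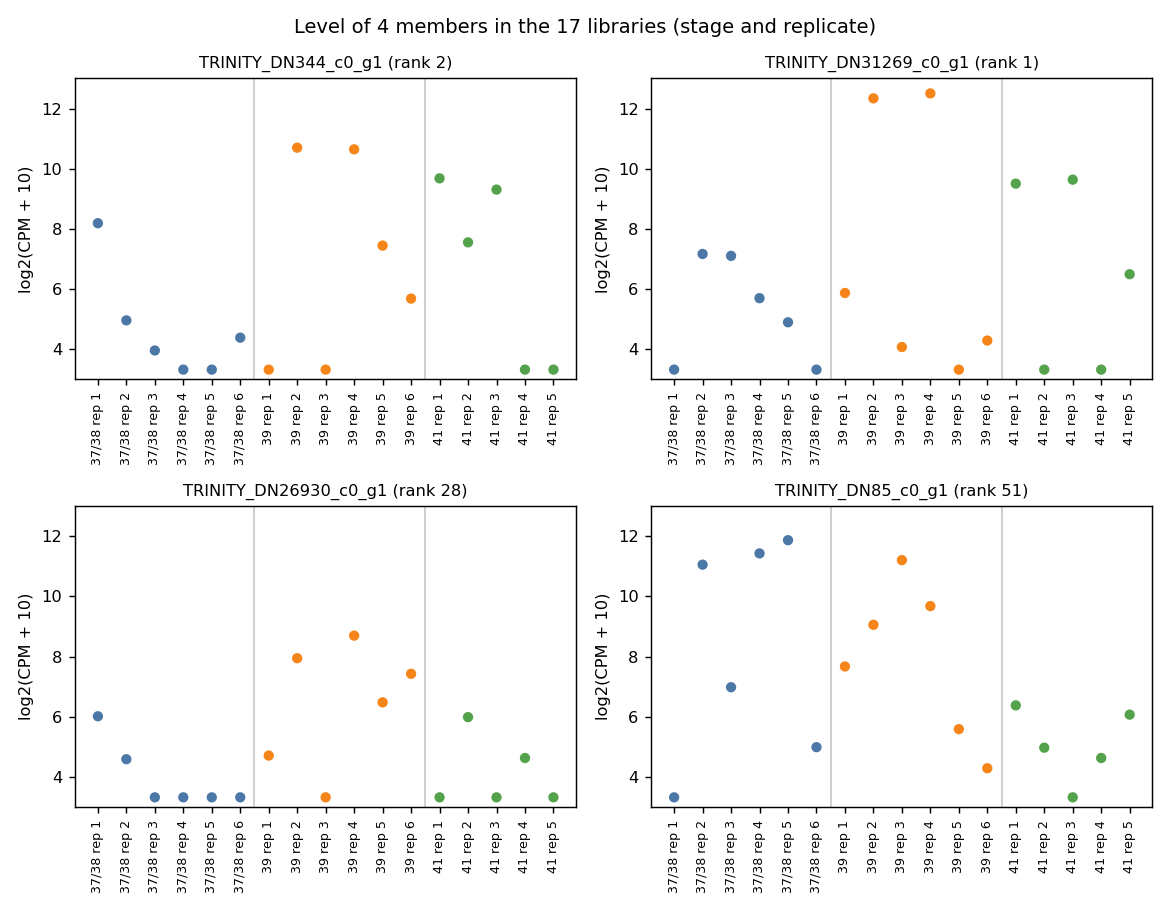
Level of the members ranked 2, 1, 28 and 51 as log2(CPM + 10) in each library, 1 panel a gene, 1 point a library, coloured by stage. In the upper panels stage 39 replicates 2 and 4 and stage 41 replicates 1 and 3 lie highest, while in the lower right panel the 4 highest points belong to stage 37/38 replicates 2, 4 and 5 and stage 39 replicate 3.

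Some members parted the stage 41 libraries, again picked after their values were seen. The member ranked 46 had 1168 CPM in stage 41 replicate 1, no count in replicate 3 and 781 CPM in replicate 4. The members ranked 11 and 47 had the opposite order, with 463 and 459.8 CPM in stage 41 replicate 3 and 9.17 and 24.4 in replicate 1. The member ranked 19 was within 4-fold of its median in both, with 6429.9 CPM in stage 39 replicate 4 and 156 and 66.7 in stage 41 replicates 1 and 3. In total 46 of the 60 members were above their median in both of these stage 41 libraries, where 23.2% of all genes kept were, and 3 and 6 had no count in replicates 1 and 3. Of the 60, 31 were at least 4-fold above their median in none of the other 13 libraries, 17 in 1 of them and 12 in 2 to 4. Of all genes kept 41.6% were that high in none of the 13.

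No member passed the test between stages, while 53 of the 60 had a higher fitted level at stage 41 than at stage 37/38. The stages were compared without stage 39 replicates 2 and 4, whose values chose the members. All 60 members were tested among the 2931 genes, since the filter was that of the rule and counted all 17 libraries. Of the 60, 23 had a count in fewer than 9 of the 15 libraries tested and passed the filter only through stage 39 replicates 2 and 4. The counts and medians over the 60 members below include these 23. With edgeR's own filter, made on the 15 libraries tested, 29 members were tested among 2279 genes for stage 41 against 37/38, and 0 passed. Of the 29, 25 were above 0, where 48.8% of those genes were, and their median log2 fold change was 1.93. An unadjusted edgeR p under 0.05 was found for 7 of them and 73 of those genes, 6 and 30 being higher at stage 41. Stage 41 was set against stage 37/38 to ask whether the members differed over the whole interval. In edgeR's quasi-likelihood test 0 of the 60 members and 0 of the 2931 genes, 0%, passed an adjusted p of 0.05; 15 members and 97 genes had an unadjusted p under 0.05, a share of 3.31% of all genes. Of these 15 members 14 were higher at stage 41, where 50 of all genes were, a share of 1.71%. DESeq2 called 1 gene, no member, and limma-voom 0. The fitted log2 fold change was above 0 in 53 of the 60 members and in 50.3% of all genes. Its median over the members was 1.94, with quartiles of 1.06 and 2.54, and 0.00 over all genes. Without stage 41 replicates 1 and 3 the median over the members was 0.01 and 30 of the 60 were above 0, against 44.8% of all genes. Those were the stage 41 libraries highest in the members, so leaving them out had to lower the median. Nothing is read from that fall. Within the runs of title letters the median was 1.86 for A to J, which holds replicate 1, and 2.82 for K to R, which holds replicate 3. The member ranked 3 had a log2 fold change of 2.82 (SE 0.89, edgeR adjusted p = 0.9999).

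Of the genes named above, TRINITY_DN31269_c0_g1 had a log2 fold change of 2.57 (SE 1.33, edgeR adjusted p = 0.9999) and TRINITY_DN344_c0_g1 of 2.53 (SE 1.36, edgeR adjusted p = 0.9999) for stage 41 against 37/38. The value of TRINITY_DN344_c0_g1 was 5.47 without stage 37/38 replicate 1, the library where it was highest at that stage. TRINITY_DN26930_c0_g1 had 0.15 (SE 1.51, edgeR adjusted p = 0.9999). TRINITY_DN85_c0_g1 had -5.19 (SE 1.38), the smallest p of any member, with an edgeR adjusted p of 0.5616. Within title letters K to R its value was -6.33 (SE 1.30, edgeR adjusted p = 0.00878), and 2 of the 3 stage 37/38 libraries of that run are among its 3 highest.

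**Figure D5:**
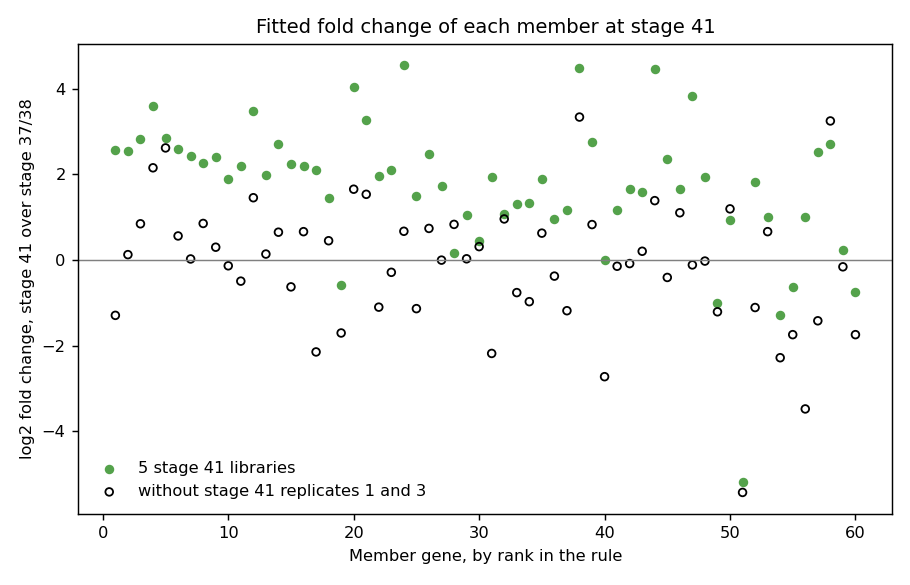
Fitted log2 fold change of stage 41 over stage 37/38 (vertical axis) for each member by rank (horizontal axis), with all 5 stage 41 libraries in green and without stage 41 replicates 1 and 3 as open circles; the line is no change. The green points lie above 0 in 53 of 60 members with a median of 1.94, and the open circles in 30 of 60 with a median of 0.01. The 2 libraries left out were those of stage 41 highest in the members, so a fall was fixed by that choice.

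Stage 39 was set against stage 37/38 for the earlier step, with the 4 libraries the rule did not use. Here 0 members and 0 genes passed in edgeR, 0% of 2931, while 2 members and 74 genes, 2.52%, had an unadjusted p under 0.05, both members and 1.13% of all genes being higher at stage 39. DESeq2 called 2 genes, no member, and limma-voom 0. The median log2 fold change of the members was -0.0024, with quartiles of -1.08 and 0.90, and 30 of the 60 were above 0, where 51.9% of all genes were. It was -2.83 within letters A to J, where stage 39 replicates 1 and 3 remained, and 1.98 within K to R, where replicates 5 and 6 were, and -1.44 without stage 39 replicate 5. The medians of the letter runs thus lay on opposite sides of 0. With edgeR's own filter 15 of 29 members were above 0 for stage 39 against 37/38, where 51.4% of 2279 genes were. Stage 41 was set against the same 4 libraries of stage 39 for the later step, a comparison that shares libraries with the others. The libraries left out were the 2 of stage 39 highest in the members, while both high libraries of stage 41 were kept. This raises the difference, so nothing is read from its direction. In edgeR 0 members and 0 genes passed, 0%, while 12 members and 103 genes, 3.51%, had an unadjusted p under 0.05, 11 of these members and 1.91% of all genes being higher at stage 41. Neither DESeq2 nor limma-voom called a gene. The median log2 fold change of the members was 1.84 with quartiles of 0.92 and 2.92, and 51 of the 60 were above 0, where 48.8% of all genes were. Without stage 41 replicates 1 and 3, the highest of that stage in the members, the median was -0.07. Without stage 39 replicate 5 it was 3.12. Within letters A to J the same limit holds, with 2 libraries each of stages 39 and 41 and the stage 37/38 libraries of that run in the fit. There edgeR called 5 genes, all members and all higher at stage 41. They ranked 3, 6, 7, 8 and 9, with edgeR adjusted p of 0.00507 to 0.0227. The member ranked 3 had a log2 fold change of 5.99 there, and those ranked 6, 7 and 8 had no count in stage 39 replicates 1 and 3, so no fold is given for them. Within K to R the median was 0.80 and 0 genes passed. With edgeR's own filter 25 of 29 members were above 0 for stage 41 against 39, where 48.2% of 2279 genes were. Their median log2 fold change was 1.75.

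In the assembly, 12 of the 60 members, 20%, had more than 1 transcript in the deposited map, where 9.42% of all genes kept had, and the member ranked 27 had 13. The component of 11 members, 18.3%, held another gene, against 31.3% of all genes kept. Reads of such genes could be divided between near-identical sequences, so their separate counts are uncertain. The members ranked 4 and 34 come from 1 component and had 345 and 40.6 CPM in stage 41 replicate 1 and 36.5 and 216 in replicate 3, so they were high in different libraries of that stage. Of the 10 other genes in the members' components 2 were kept by the filter, and each of these was at least 4-fold above its median in 1 of stage 39 replicates 2 and 4 and not in both. The members were seen in fewer libraries than other genes, with a count in a median of 11 of 17, where all genes kept had a median of 13, while their median summed count of 488.5 was above the 229 of all genes kept. Both follow in part from the rule, which favours genes low in most libraries and high in 2.

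Genes low in the same libraries were also counted. Of the 2931 genes, 77 were at least 4-fold below their median in both stage 39 replicates 2 and 4, where 99 were at least 4-fold above it, the 60 members among them by the rule. In both stage 41 replicates 1 and 3, 53 were that far below and 74 that far above. In all 4 libraries 7 genes were that far below and 32 that far above, of which 30 are members. Since the rule chose on the stage 39 libraries, only 39 other genes could have been among the 32, so nothing is read from that share. A fall of this size cannot be seen in a gene whose median is low, because the lowest value of log2(CPM + 10) is that of no count.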

How the data were processed

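Expression was measured in 17 explant libraries as RSEM expected counts per Trinity gene. Per the submitters' processing notes Trimmomatic, Bowtie2 and RSEM were used, without versions, and per the series' design text the authors collapsed isoform counts to gene counts. The deposited expected counts are not normalized, and 8.79% of those above 0 are not whole (tolerance 1e-06). The deposited map of gene and transcript identifiers has no measured unit (other). No genome build or assembly sequence is used here.

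The members, the lists and the tests were chosen with earlier results of these data known. The rule's filter and CPM used the counts as deposited. For tests they were rounded to whole numbers, scaled by TMM and fitted with 1 coefficient per stage over 15 libraries in edgeR 4.0.16 (glmQLFit, glmQLFTest) under R 4.3.3, with Benjamini-Hochberg adjustment over 2931 genes and a threshold of 0.05. Approximate standard errors are |log2 fold change|/sqrt(F). The pipeline was run on simulated counts in which the changed genes moved alike in all libraries of stage 41. That setting differs from genes high in only some libraries, so it does not show the power of the tests for the members. Identifiers were printed for the 2 members with the largest smaller excess and the 2 with the lowest larger excess in stage 41 replicates 1 and 3. Marker lists of cell types could not be used without gene names. Alternatives were DESeq2 1.42.0, limma-voom (limma 3.58.1), other scalings, filters, libraries, the replicate block and other forms of the rule.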

Additional observations from a re-analysis of the deposited data

Results flagged for a closer look

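A search by Dixon's gap for a library far from the rest of its stage covered 21 groups of values and found 5. Stage 39 replicates 2 and 4, whose values chose the members, were left out of the search and could not be flagged. The limits used flag about 1 in 20 groups by chance if values are normally distributed. Values of CPM with several libraries at 0 are skewed and can be flagged more often, so nothing is read from the number found. The total count of stage 41 replicate 2 was 748726, while its 4 fellow libraries held 67838 to 204913. In stage 37/38 replicate 1 TRINITY_DN344_c0_g1 reached 282 CPM and the 5 further libraries of that stage 0 to 21.1 CPM. TRINITY_DN26930_c0_g1 reached 54.7 CPM in that library, with 0 to 14.1 CPM in the remaining 5, and 53.4 CPM in stage 41 replicate 2, with 0 to 14.7 CPM in the remaining 4. TRINITY_DN85_c0_g1 reached 2350.2 CPM in stage 39 replicate 3, with 9.54 to 194 in stage 39 replicates 1, 5 and 6. The first 4 values lie in stage 37/38 replicate 1 and stage 41 replicate 2.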

How the results depend on the processing

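Counts of called genes stayed at 0 in the 3 comparisons when any 1 of the 15 libraries was left out. For stage 41 against 37/38 edgeR called 4 genes, 1 of them a member, within letters K to R and 9, 2 of them members, with no filter on low counts; DESeq2 called 1 gene. Without a filter TRINITY_DN85_c0_g1 had a log2 fold change of -5.19 there and -4.10 for stage 41 against 39, both called, and -6.33 within letters K to R. The other member called without a filter for stage 41 against 37/38 was that ranked 3. Its log2 fold change was 2.73 (SE 0.65, edgeR adjusted p = 0.0498). For stage 39 against 37/38 DESeq2 called 2 genes and edgeR 3 with no filter. For stage 41 against 39 edgeR called 5 genes, 5 of them members, within letters A to J and 5, 1 of them a member, with no filter. The 2 stage 39 libraries highest in the members were left out of these fits. The cause was not tested. The members' median log2 fold change ran from 1.43 to 2.45, from -1.44 to 0.71 and from 1.16 to 3.12 in these comparisons with 1 library left out. Without stage 41 replicates 1 and 3 it was 0.0104 for stage 41 against 37/38 and -0.0697 for stage 41 against 39. A fall was fixed by leaving out the stage 41 libraries highest in the members. With all 17 libraries the median was 3.25 for stage 39 against 37/38 and -1.61 for stage 41 against 39. Both follow by construction, since stage 39 replicates 2 and 4 chose the members. For stage 39 against 37/38 it was -2.83 within letters A to J and 1.98 within K to R, and for stage 41 against 39 it was 3.90 within A to J. With the replicate block edgeR called 0 genes in each comparison and the medians were 2.19, 0.20 and 1.86. Of 16 pairs of libraries with the same number, 0 had deviations from the stage mean correlated over 0.1, with r from -0.136 to 0.0488. In libraries this shallow such a check cannot exclude a shared origin, and the labels do not say whether the numbers pair the samples. High genes by the rule in stage 41 replicates 1 and 3 numbered 14 and 17 of the 60 chosen with a count in at least 13 columns. They numbered 24 and 22 of the first 30 members, and 17 and 22 with an 8-fold limit. Over all 2931 genes kept, 9.38% and 9.76% were high by 4-fold, and 2.83% and 3.07% by 8-fold. In replicate 1 they numbered 25 of the 60 chosen with the median over the 14 libraries of at least 100000 counts, where 7.71% of all genes kept were high. That alternative was added after seeing the data. With the median over the 15 libraries outside the rule they numbered 47 and 45, where 9.04% and 9.18% of all genes kept were high. Of the 60 members 21 stayed without a minimum number of columns with a count, 15 with at least 13 columns, and 30 by construction among the first 30. With the 10 most abundant genes out of the denominator the members' share was 15.2% and 21.8% in stage 39 replicates 2 and 4, 4.201% and 4.205% in stage 41 replicates 1 and 3 and at most 2.101% elsewhere. Without the 3 members with the most counts it was 5.01%, 6.897%, 1.596%, 1.75% and at most 0.634% in the same order. Of the alternative values of these results 270 stayed within their limits and 40 did not. A count stayed if it was within 1.5-fold of its main value, or if both were 0. A median log2 fold change stayed if it moved by less than 1.17, the pooled SD of the libraries' median excess. A share stayed if it lay within its Wilson interval. Many counts of calls were 0 throughout, so nothing is read from this split. With edgeR's own filter on low counts 29 members were left to test. At 67838 counts 1 count is 14.7 CPM, so low members in such libraries rest on a few counts.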
